A study of Rattus norvegicus with 18 samples.

Results

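Between rats of an outbred stock, most CpG cytosines of the hippocampus carry nearly the same share of methylation, and a small set does not. The 12441 cytosines described here are those of chromosomes 1 to 20 whose methylation level differed by more than 60 percentage points between the highest and the lowest of 18 rats, out of 2279082 measured on these chromosomes (0.546%) and 2330883 in the whole table. The range itself chose them, so their ranges and levels are given as a description and are not tested. They belong to 9226 CpGs, the positions where a cytosine is followed by a guanine and which therefore read the same on the opposite strand. In 3215 of these CpGs the cytosines of both strands passed the rule, and in the others 1 strand did.

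Methylation of a CpG is copied to the new strand after DNA replication by the maintenance methyltransferase Dnmt1, so both strands of a site usually carry the same state. In a diploid tissue each cell holds a maternal and a paternal copy, and a level measured over many cells is the share of copies that are methylated. Levels of 0, 50 and 100% are those a site takes when no copy, 1 of both copies or both copies are methylated in nearly every cell. A base change that removes a CpG, when read after bisulfite treatment as converted cytosine, also takes these levels, and fractions of methylation do not separate it from a change of methylation at an intact CpG.

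The DNA came from the left hippocampus of adult male Sprague-Dawley rats, an outbred stock, and was read by reduced representation bisulfite sequencing, in which DNA cut with MspI at CCGG is bisulfite converted and sequenced. The groups were 4 sham and 4 seizure rats of intrahippocampal electrical kindling, in which repeated stimulation through a hippocampal electrode leads to seizures, and 7 sham and 3 seizure rats of systemic kainic acid, a glutamate receptor agonist given in repeated injections to cause status epilepticus. Seizure rats are labelled with 3 class V seizures and were sampled 24 hours after the last one. The sources used here do not say what the sham rats of either model underwent, or which rats shared a litter or a sequencing batch. The tissue is a mixture of cell types. The authors deposited methylation fractions alone, so the depth is unknown and no interval is given for a single value.

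A single library stood apart before any comparison. In kindling sham rat 1, 44.6% of the variable cytosines lay within 10 points of 0, 50 or 100%, against 60.2 to 62.0% in the other 3 kindling sham rats. Its values lay instead between 15 and 35% or between 65 and 85% at 38.8% of the cytosines, against 23.9 to 25.8% in the other 3. Over the other 14 rats the share between these levels was lowest in kindling seizure rat 1 (23.2%) and highest in kainic acid seizure rat 1 (29.1%). Values without kindling sham rat 1 are given beside the results they bear on.

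The variable cytosines had a median range of 82.8 points, against 6.45 points over all cytosines of chromosomes 1 to 20. In 948 of them 1 rat was at 0% and another at 100%. The range exceeded 70 points in 8686, 80 points in 6692 and 90 points in 4579 cytosines. The set is continuous with the rest at its edge, since 23779 cytosines exceeded 50 points. Just inside the threshold lay the cytosines at chr19:56271505, chr18:32821299 and chr18:79423467 (build rn6), with ranges of 60.0086, 60.0112 and 60.0242 points. Where the opposite strand of these was measured it ranged over 11.4 points at chr19:56271505 and 28.9 points at chr18:79423467. Just outside lay the cytosines at chr1:48057104, chr1:48565417 and chr1:54099496, each with a range of 60 points.

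The membership of many cytosines rested on few rats. When the highest and the lowest rat of each cytosine were set aside, 6476 (52.1%) still ranged over more than 60 points. A further count took single rats out of all cytosines at once, and 5628 (45.2%) fell to 60 points or below on removal of a given rat. The counts for single rats overlap, since a cytosine can rest both on its highest and on its lowest rat. Kindling sham rat 4 decided 1014 of the cytosines, kindling sham rat 3 decided 791 and kindling sham rat 2 decided 616, while kindling sham rat 1 decided 171. Among the other groups, kainic acid sham rat 5 (612) and kindling seizure rat 4 (603) decided the most, and the remaining rats decided between 175 and 400 each. Kindling sham rat 2 was counted as the lowest rat at 1828 cytosines and as the highest at 1178, with each tie given to the first rat in group order. Ties at the ends are common and that order starts with the kindling sham rats, so these tallies are not compared between rats.

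The values of these cytosines gathered near 0, 50 and 100%. Over 18 rats, 17.4% of all values lay within 10 points of 0%, 24.98% within 10 points of 50% and 16.3% within 10 points of 100%, which together made 58.7%. Without kindling sham rat 1 the total was 59.5%. In 520781 other cytosines of chromosomes 1 to 20 with a mean level of 10 to 90%, the shares were 2.46, 17.2 and 7.80%, and the total was 27.5%. That limit on the mean keeps out cytosines near 0 or 100% in all rats. Over all cytosines of chromosomes 1 to 20 the shares were 48.3, 4.07 and 28.7%, and the total was 81.0%. The window around 50% extends to both sides, those at 0 and 100% to 1 side. The share near 0 and 100% in the variable cytosines follows in part from the rule, which asks for a wide range. The distribution had 3 rises. Bins of 5 points held 14.54% of values at 0 to 5%, fell to 1.45% at 15 to 20%, rose to 6.94% at 40 to 45%, fell to 3.17% at 70 to 75% and rose again to 9.66% at 95 to 100%. In the other cytosines with a mean level of 10 to 90% no such rise stood near 0 or 50%. Their largest bin was that of 80 to 85%, with 11.5% of values. The lack of a rise near 0% follows in part from that limit on the mean.

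**Figure D1:**
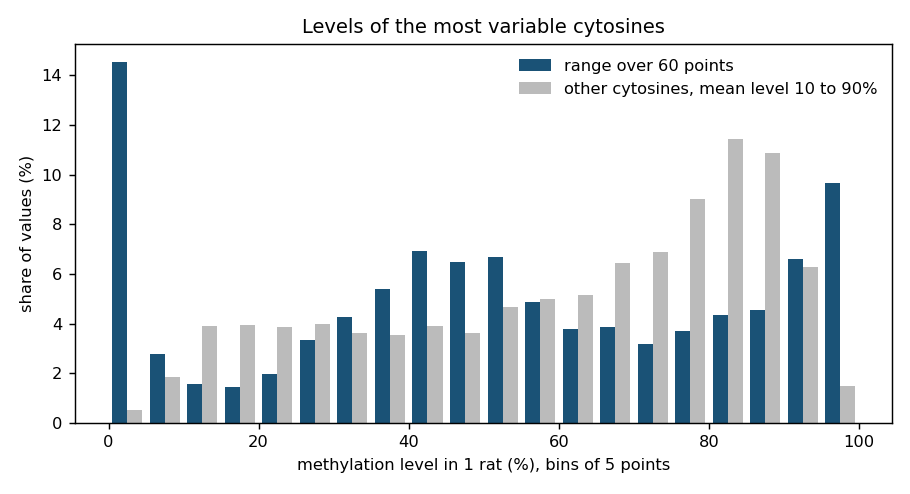
Share of single values (1 cytosine in 1 rat, vertical axis, %) in bins of 5 points of methylation level (horizontal axis, %), for the 12441 variable cytosines (blue) and for the 520781 other cytosines with a mean level of 10 to 90% (grey). The blue bars rise at 0 to 5%, around 40 to 55% and at 95 to 100%, and the grey bars rise once, at 80 to 90%.

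Single cytosines showed the same levels in different combinations. At 4482 cytosines (36.0%) at least 1 rat lay near each of 0, 50 and 100%. At 3558 rats lay near 0 and near 50% with none near 100%, at 2052 near 50 and near 100% with none near 0%, and at 491 near 0 and near 100% with none near 50%. No rat was near either end at 1103 cytosines. All 18 values lay within 10 points of one of the 3 levels at 174 cytosines (1.40%), against 0.599% of the other cytosines with a mean level of 10 to 90%. Mean levels were intermediate, with a median of 51.5%. A mean of 20 to 80% was found at 24.4% (20 to 40%), 34.4% (40 to 60%) and 27.1% (60 to 80%) of the variable cytosines, against 3.59, 3.96 and 6.71% of all cytosines of these chromosomes.

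Every group showed the 3 levels. The share of values near any of them was 56.8% ± 8.17 (SD, n = 4) in kindling sham, 61.4% ± 1.03 (SD, n = 4) in kindling seizure, 59.0% ± 2.84 (SD, n = 7) in the sham rats of the kainic acid model and 56.6% ± 4.12 (SD, n = 3) in its seizure rats. Sham and seizure rats overlapped in both models, and the spread in kindling sham rats came with the library that stood apart. In that rat 8.98% of values were near 0% and 10.9% near 100%, while its share near 50% (24.7%) lay among those of the other rats.

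**Figure D2:**
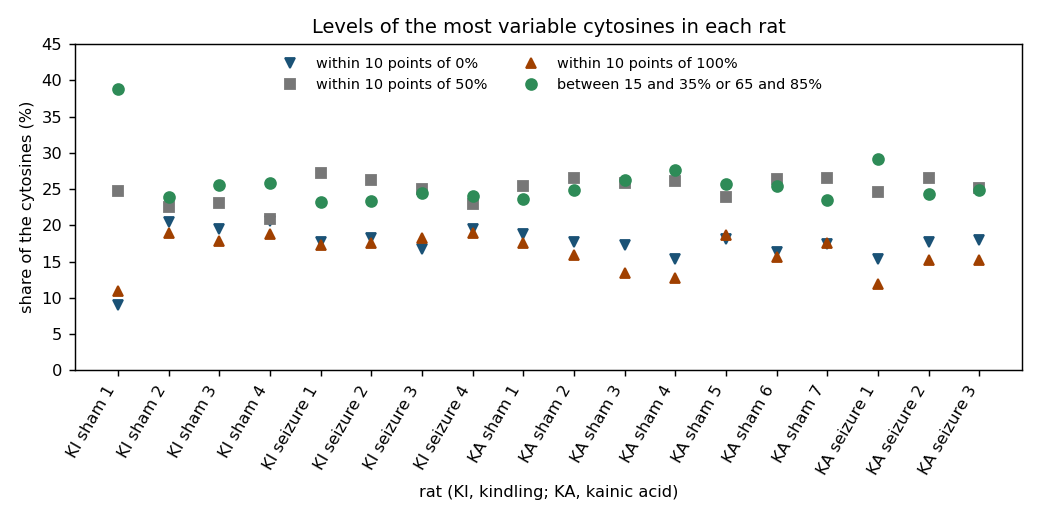
Share of the 12441 variable cytosines (vertical axis, %) whose level lies within 10 points of 0, 50 or 100%, or between 15 and 35% or 65 and 85%, in each of the 18 rats (horizontal axis). Kindling sham rat 1 has the lowest shares near 0 and 100% (8.98 and 10.9%) and the highest share between the levels (38.8%), against 23.2 to 29.1% between the levels in the 14 rats of the other groups.

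The clearest examples were 266 CpGs variable on both strands at which at least 3 rats lay near each of the 3 levels. The 5 of these with the smallest mean distance to the levels lay 2.27 to 2.79 points from them on average, with levels taken as the mean of both strands. At chr15:34010325 the kindling sham rats were at 97.1, 1.27, 47.2 and 51.04%, the kindling seizure rats at 51.8, 51.7, 0 and 53.1%, the kainic acid sham rats between 0 and 50.9% with a median of 1.996%, and the kainic acid seizure rats at 2.70, 93.8 and 94.1%. Each of the 3 levels was thus found in sham and in seizure rats. Both strands gave r = 0.962 over the 18 rats there.

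At chr9:33372119 the kindling sham rats were at 97.1, 0.617, 54.2 and 1.16% and the kindling seizure rats at 96.4, 51.5, 1.14 and 44.8%. The kainic acid sham rats ran from 1.20 to 98.0% (median 49.3%), and the kainic acid seizure rats were at 54.3, 93.8 and 96.9%. The 25 measured cytosines of other CpGs within 500 bp averaged 94.8%, and 23 of them ranged over less than 30 points. At chr15:28779524 all 4 kindling sham rats lay between 47.9 and 51.95%, and the kindling seizure rats were at 96.5, 97.4, 96.8 and 0.949%. All 14 neighbours there ranged over less than 30 points, around a mean of 97.3%. At chr3:163527991 and chr7:26807657, 10 rats lay near 0%, 5 near 50% and 3 near 100%. The neighbours of both were methylated to 82.8 and 84.3% on average.

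**Figure D3:**
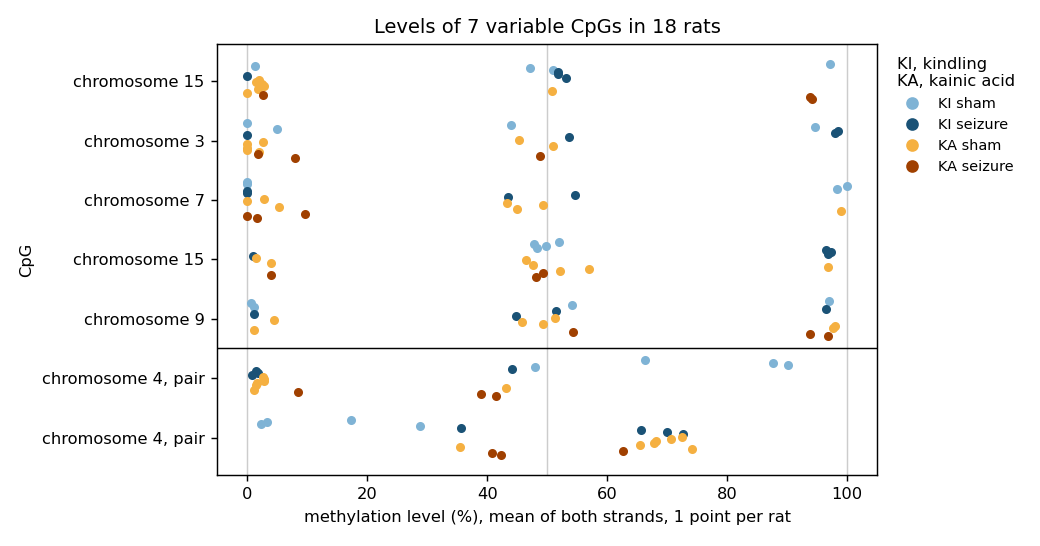
Methylation level (horizontal axis, %, mean of both strands) of 7 variable CpGs (vertical axis) in 18 rats, 1 point per rat coloured by group, with lines at 0, 50 and 100%. In the upper 5 CpGs the points fall close to the lines and each group spreads over more than 1 line in at least 4 of the 5, and the lower pair, 21 bp apart on chromosome 4, mirror each other.

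Both strands mostly varied together. The plus strand held 6226 and the minus strand 6215 of the variable cytosines. The opposite cytosine of the same CpG was in the table for 8319 (66.9%), a lower share than the 86.6% over all cytosines of these chromosomes. In these, Pearson's r between the strands over the 18 rats had a median of 0.957, and r exceeded 0.9 in 74.0% (74.3% without kindling sham rat 1). Both strands come from the same rats but from different reads. The opposite cytosine passed the 60-point rule in 6430 cases (77.3%), and its median range was 83.0 points. Within single rats the strands differed by a median of 4.64 points, and between 69.7 and 78.9% of pairs in each rat differed by less than 10 points. In other cytosines with a mean level of 10 to 90% the strands differed by a similar median of 5.26 points, but their r had a median of 0.193.

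Agreement rose with the range. For a member range of 60 to 70 points the median r was 0.851, and 36.8% of opposite cytosines also passed the rule. The values were 0.948 and 78.9% at 70 to 80 points, 0.966 and 95.2% at 80 to 90 points, and 0.974 and 98.8% at 90 to 100 points. Just below the threshold, at 50 to 60 points, the median r was 0.385. The weakest agreement was thus at the lower end of the set, and the 10th percentile of r over the set was 0.346.

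A small subset differed sharply between strands. At 97 cytosines the opposite strand ranged over less than 10 points, at 330 over 10 to 30 points and at 1464 over 30 to 60 points. Of the 97, the opposite cytosine had a mean level above 90% in 82 and below 10% in 13. The cause of this difference between strands was not tested.

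The variable cytosines were unevenly spread along the genome. They numbered 5.46 per 1000 measured cytosines overall and ran from 3.78 per 1000 on chromosome 19, 4.10 on chromosome 17 and 4.16 on chromosome 5 to 7.21 on chromosome 11 and 7.41 on chromosome 20. In windows of 100 kb with at least 50 measured cytosines, 6518 of 10598 (61.5%) held none, and the 530 windows with the most held 34.2% of them. In 173 windows more than 5% of the measured cytosines were variable. The last 2 Mb measured of each chromosome held 0.659% of the variable cytosines and 1.58% of all cytosines.

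At short range, 21.03% of variable CpGs had another variable CpG within 500 bp, against 4.96% of the other measured CpGs. The share was already 12.9% within 50 bp (against 1.41%), and reached 28.6% within 5 kb (against 10.96%) and 59.5% within 50 kb (against 41.2%). Most were nevertheless single: joined across gaps of up to 500 bp, they made 8083 runs, of which 7286 held 1 variable CpG, 646 held 2, 112 held 3 and 39 held 4 or more. Runs of 4 or more held 3.38% of the variable CpGs.

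The largest run, chr1:11909831-11911174, held 65 variable CpGs among 125 measured in 1344 bp. The mean level over its variable CpGs was 69.1, 50.6, 69.3 and 14.55% in the kindling sham rats, 43.1, 34.8, 81.7 and 73.7% in the kindling seizure rats, between 19.3 and 82.0% (median 71.2%) in the kainic acid sham rats, and 13.98, 69.5 and 49.3% in the kainic acid seizure rats. The lowest 3 rats, at 13.98 to 19.3%, were thus a kainic acid seizure rat, a kindling sham rat and a kainic acid sham rat, so sham and seizure rats overlapped in both models. Its CpGs moved together, with a median r of 0.978 between pairs. Another run of 15 CpGs in 533 bp began at chr1:11911721 and had a median r of 0.960. Both lie in the window chr1:11900001-12000000, where 132 of 708 measured cytosines (18.6%) were variable.

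On chromosome 13, chr13:74268595-74268876 held 14 variable CpGs of 14 measured, with a median r of 0.963. Kindling sham rat 2 (94.8%) and kindling seizure rat 4 (95.4%) were high there and the other rats lay between 25.6 and 67.5%. On chromosome 6, chr6:135694247-135694324 held 13 variable CpGs of 13 measured in 78 bp, where kindling seizure rat 3 was lowest (17.2%) and kindling seizure rat 1 highest (92.8%). The run at chr14:92117237-92117543 was of another kind, since its 15 variable CpGs had a median r of 0.605 and a lowest r of -0.56, and 12 of 18 rats lay near 50% in its mean. The run at chr14:11164286-11164701, with 13 variable CpGs of 17 measured, had a median r of 0.814.

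The window with the highest share of variable cytosines was chr4:112600001-112700000, with 20 of 65 (30.8%). The window chr13:74200001-74300000 had 27 of 130 (20.8%), chr10:76200001-76300000 had 10 of 61 (16.4%) and chr5:138000001-138100000 had 8 of 53 (15.1%). Pairs of variable CpGs had a median size of r of 0.958 in the chromosome 4 window and of 0.367 in the chromosome 5 window, so that density and joint variation did not always come together. An annotation of rn6 was not used here, so the genes at these places are not named.

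Most neighbours of a variable cytosine ranged over less than 30 points, but wide ranges were more common among them than over all cytosines. Of the 12441, 11736 (94.3%) had a measured cytosine of another CpG within 500 bp, with a median of 8 such neighbours. The surroundings were sparsely measured: a window of 500 bp to each side held a median of 10 measured cytosines, against 34 over all cytosines of these chromosomes. Among 182453 pairs of a variable cytosine and a neighbour, the neighbour's range had a median of 11.1 points, was under 30 points in 79.4% and exceeded 60 points in 5.89%. Over all cytosines of these chromosomes the median range was 6.45 points, and 0.546% exceeded 60 points. At least 1 neighbour exceeded 60 points for 2526 variable cytosines (21.5% of those with neighbours), and no neighbour reached 30 points for 4970 (42.3%).

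The surroundings were mostly methylated. The neighbours outside the set averaged above 80% at 7096 of 11651 variable cytosines (60.9%), 20 to 80% at 3860 (33.1%) and below 20% at 695 (5.97%). The same shares over all cytosines of these chromosomes were 29.5, 18.6 and 51.9%. Unmethylated surroundings in reduced representation data are mainly CpG islands, which are usually free of methylation at promoters. Where the surroundings were above 80%, values were near 0% in 19.9%, near 50% in 25.2% and near 100% in 19.3%. Where they were below 20%, 30.8% of values were near 100%, 18.1% near 0% and 14.4% near 50%.

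A minority of neighbours followed the variable cytosine, and more often so at short distances. Pearson's r over the 18 rats was 0.5 or more for 15.1% of neighbour pairs in all (15.47% without kindling sham rat 1), for 23.3% at 1 to 25 bp, for 16.5% at 25 to 50 bp and for 11.7% at 100 to 200 bp, and for 14.7% at 350 to 500 bp. Near neighbours on the same strand can lie on the same reads, while those on opposite strands come from different reads. How far shared reads bear on these values was not tested.

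Variable CpGs followed one another over far longer distances. The median size of r between 2 variable CpGs was 0.963 up to 500 bp (3025 pairs) and 0.963 from 500 bp to 5 kb. It was 0.614 from 5 to 50 kb (4012 pairs), 0.417 from 50 to 500 kb (31448 pairs), 0.228 from 500 kb to 5 Mb and 0.190 above 5 Mb, close to the 0.186 of pairs on different chromosomes. The largest run supplied most pairs between 500 bp and 5 kb, and without it the median there was 0.866 (786 pairs). In CpGs variable on both strands the medians were higher, at 0.985, 0.980, 0.896 and 0.644 for the first 4 distances. Without kindling sham rat 1 the medians for all variable CpGs were 0.963, 0.964, 0.618 and 0.422. These r values share the 18 rats and are given without a test.

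**Figure D4:**
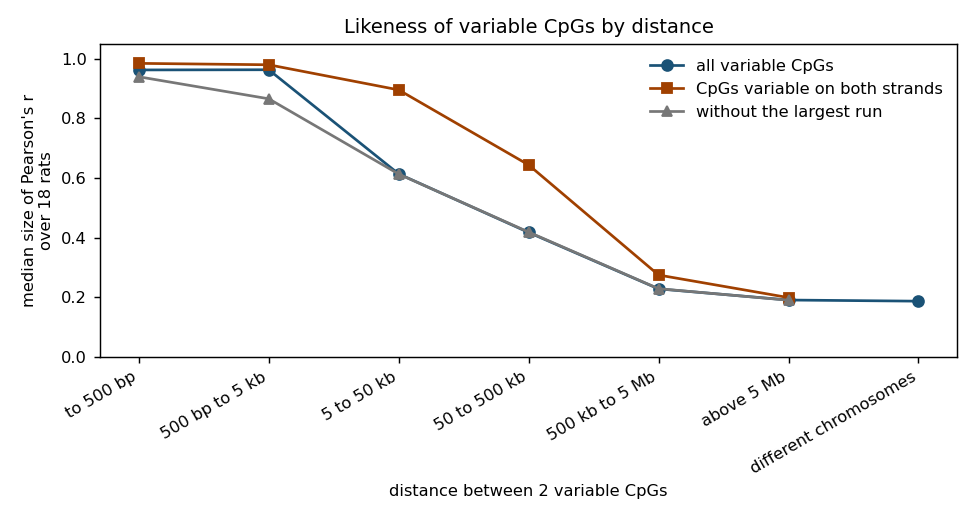
Median size (absolute value) of Pearson's r over 18 rats between pairs of variable CpGs (vertical axis) by their distance (horizontal axis), for all variable CpGs, for CpGs variable on both strands and without the largest run. The median falls from 0.963 up to 500 bp to 0.190 above 5 Mb, near the 0.186 of pairs on different chromosomes.

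Joint variation also ran in opposite directions. From 5 to 50 kb, r was above 0.8 in 25.2% of pairs, and negative with a size above 0.8 in 11.6%. Up to 500 bp these shares were 76.3 and 3.04%. A pair 21 bp apart on chromosome 4 gave r = -0.99. At chr4:150231073 the kindling sham rats were at 66.4, 87.7, 90.1 and 48.0% and at chr4:150231094 at 17.3, 3.35, 2.29 and 28.8%. The kindling seizure rats were at 44.1, 1.42, 1.79 and 0.867% at the first CpG and at 35.6, 65.6, 69.9 and 72.6% at the second. Rats high at the first were low at the second throughout. Another variable CpG, chr4:150397564, lay 166 kb away and had r = -0.98 with the first and 0.968 with the second. Other named pairs were chr1:83936992 and chr1:83936999, 7 bp apart with r = 0.997, chr12:23654381 and chr12:23686292, 31.9 kb apart with r = 0.914, and chr1:243588638 and chr1:243665144, 76.5 kb apart with r = 0.878.

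The widest ranges on both strands were 100 points on each, and the first 5 by position all lay on chromosome 1. At chr1:83936999 the kindling sham rats were at 46.4, 43.4, 60.5 and 100%, the kindling seizure rats at 92.5, 42.1, 45.8 and 95.1%, the kainic acid sham rats between 0 and 93.7% (median 44.1%), and the kainic acid seizure rats at 3.08, 0.943 and 1.67%. The kainic acid seizure rats were all low there, but kainic acid sham rats 1 and 5 were lower still, at 0%. At chr1:52117610 the 18 rats ran from 0 to 100%, and its 8 neighbours averaged 94.1%. At chr1:98037188 kindling seizure rat 3 was at 0% and the other 3 kindling seizure rats between 91.7 and 98.4%, and 142 kb away at chr1:98179431 the same rat was at 44.6% against 83.2 to 96.4% in those 3.

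Over all variable CpGs, pairs of rats differed in how alike they were. After each CpG was centred on its mean, Pearson's r between rats over the 9226 CpGs had a median of -0.079 over the 153 pairs, and 7 pairs exceeded 0.2. Centring on a mean of the same rats by itself makes r between unrelated rats slightly negative. Slightly negative values are therefore not read as unlikeness. The most alike were kindling seizure rats 1 and 2 (0.448), kainic acid seizure rats 1 and 3 (0.421) and kainic acid sham rats 1 and 3 (0.396), all within a group. The next 4 crossed the models: kindling seizure rat 3 with kainic acid sham rat 2 (0.321), kindling sham rat 1 with kainic acid seizure rats 3 (0.282) and 1 (0.250), and kindling seizure rat 4 with kainic acid sham rat 1 (0.217). Neighbouring CpGs share a run, and with 1 CpG kept per run the first 3 values were 0.450, 0.431 and 0.394.

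The likeness held over separate chromosomes. For kindling seizure rats 1 and 2, r was 0.557 on odd-numbered and 0.336 on even-numbered chromosomes, and for kainic acid seizure rats 1 and 3 it was 0.477 and 0.364. Over the 153 pairs, which share rats, the values from odd and even chromosomes had r = 0.848. The most similar rat was in the same group for 7 of 18 rats, and was the same rat on odd and even chromosomes for 11. The median r was -0.044 within groups, -0.085 between groups of 1 model and -0.084 between models. Kinship of the rats was not tested.

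The 6 pairs of kindling sham rats had r of -0.080 to -0.022. The level of kindling sham rat 1 lay between those of kainic acid seizure rats 1 and 3, allowing 5 points to either side, at 51.4% of the variable CpGs. Its median distance from their mean was 12.1 points, against 13.2 points from rat 1 and 14.04 points from rat 3. Set in the same way against the mean of every pair of other rats, each rat had its own closest pair, at a median distance from 10.6 points for kainic acid seizure rat 1 to 21.9 points for kindling sham rat 4. The 3 smallest distances belonged to kainic acid seizure rats 1 and 3 and kindling sham rat 1, each against the other two. Kindling sham rat 1 was also in the closest pair of further rats, such as kindling seizure rats 1 and 2 (13.1 and 13.6 points). Compared directly, kainic acid seizure rats 1 and 3 differed by a median of 9.19 points and kindling seizure rats 1 and 2 by 7.14 points. The share of 51.4% has no counterpart for other rats here. What the library of kindling sham rat 1 holds was not tested.

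**Figure D5:**
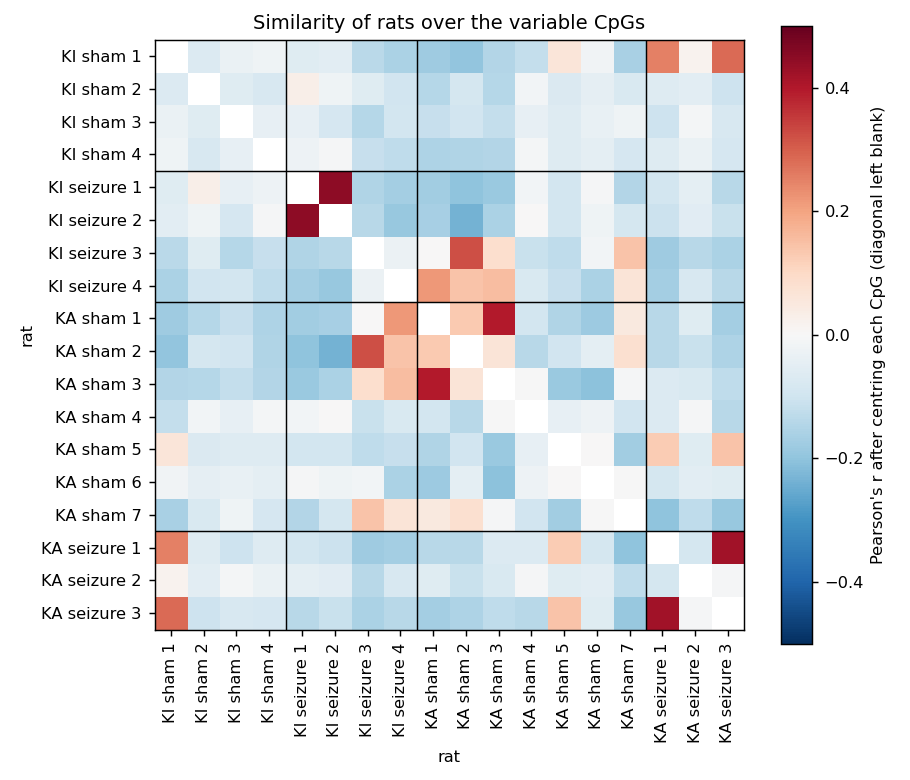
Pearson's r between rats (rows and columns, 18 rats in group order, lines between groups) over 9226 variable CpGs after centring each CpG on its mean, on a colour scale from -0.5 to 0.5. The 7 pairs above 0.2 comprise 3 within a group block and 4 outside, and kindling sham rat 1 shows its highest values with kainic acid seizure rats 1 and 3.

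A minor share of this variation lay between the group labels. The 4 labels held a median of 17.3% of a variable cytosine's variance over the 18 rats (18.91% without kindling sham rat 1, and 16.85 to 19.17% without each rat in turn), against 15.1% over all cytosines of these chromosomes with a range of at least 10 points. Any split of 18 values into 4 groups, also by labels unrelated to the values, takes up some of the variance. The median share is therefore not read as an effect of the groups. The share exceeded 50% at 401 variable cytosines (3.22%, against 1.81%), and its highest value was 78.1%, at 1 strand of chr4:150397564. The next were 76.9% at chr16:21343201, 76.6% at chr1:243665144, 76.4% at chr7:12384782 and 74.8% at chr2:30017701, all described with their levels among the cytosines of smallest p. The range exceeded 60 points within at least 1 group at 10047 (80.8%). It did so among the 4 kindling sham rats at 39.7% of cytosines, the 4 kindling seizure rats at 28.9%, the 7 kainic acid sham rats at 48.4% and the 3 kainic acid seizure rats at 13.8%, in groups whose sizes differ.

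Differences between groups were tested with limma over all 800753 cytosines of the table with a range of at least 10 points, with Benjamini-Hochberg adjustment over all of them, and all 12441 variable cytosines were among these. A cytosine was called at an adjusted p under 0.05. In kindling, seizure against sham, 0 variable cytosines were called, as were 0% of all cytosines tested, and 1632 had an unadjusted p under 0.05 (13.1%, against 5.72% of all tested). In the kainic acid model 0 were called, against 0.000624% of all tested, and 1433 had an unadjusted p under 0.05 (11.5%, against 3.82%). For the mean of both differences 0 were called, against 0% of all tested, and 1067 were under 0.05 unadjusted (8.58%, against 4.73%). For kainic acid sham against kindling sham rats 0 were called, against 0%, and 1745 were under 0.05 unadjusted (14%, against 6.16%). For any difference among the 4 groups 0 were called, against 0.000500%, and 2046 were under 0.05 unadjusted (16.4%, against 4.77%). Because these cytosines were chosen by their spread over the same 18 rats, nothing is read from the unadjusted shares. Sham and seizure rats did not overlap at 413 variable cytosines in kindling (3.32%, against 2.42% of cytosines tested on these chromosomes) and at 285 in the kainic acid model (2.29%, against 1.53%).

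The counts of calls depended on single libraries, and each is given with the number called over all 800753 cytosines tested. Without kindling sham rat 1, the variable cytosines made up 26 of 52 calls for kindling, 32 of 87 between the sham groups, 12 of 23 for the mean of both differences, 27 of 55 for any difference and 1 of 8 for kainic acid. Without kindling sham rat 2 they made up 5 of 20 for kindling, 13 of 43 between the sham groups, 12 of 39 for any difference and 2 of 8 for kainic acid. Without kindling sham rat 4 the same comparisons gave 6 of 7, 7 of 8, 4 of 9 and 2 of 8. Leaving out kindling seizure rats 1, 2 and 4 in turn gave 1 of 1, 2 of 2 and 4 of 6 calls for kindling and 1 of 5, 3 of 7 and 6 of 11 for any difference, and leaving out rat 4 gave 1 of 1 for the mean of both.

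For kainic acid, the variable cytosines made up 10 of 54 calls without seizure rat 2, 4 of 28 without seizure rat 1, 2 of 6 without sham rat 2, 1 of 5 without sham rat 3 and 2 of 6 without sham rat 5. Without kainic acid seizure rats 1 and 2 in turn they made up 1 of 6 and 3 of 13 calls for the mean of both, and 3 of 15 and 7 of 34 for any difference. Without kainic acid sham rat 2 they made up 1 of 1 for the mean of both and 1 of 5 for any difference, and without kainic acid sham rat 6 they made up 2 of 2 between the sham groups. Sham and seizure libraries are few, and a group reduced by 1 rat is then tested on the spread pooled over all groups.

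The cytosines with the smallest p in kindling were not called. The smallest was at chr4:150397564, where the kindling sham rats were at 16.5, 0.820, 0 and 29.1% and the kindling seizure rats at 35.1, 70.9, 66.6 and 62.1%. The kainic acid sham rats were between 37.6 and 67.8% (median 59.0%) and the kainic acid seizure rats at 56.9, 30.6 and 42.7%. On the minus strand the kindling difference was 54.7 ± 7.95 points (SE, limma, adjusted p = 0.296). On the plus strand it was 39.5 points.

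At chr20:12145590 kindling sham rats 2 to 4 were at 46.1, 43.1 and 30.8%, while kindling sham rat 1 (93.3%) and all rats of the other 3 groups (85.9 to 100%) were high. The same rats were apart at chr20:47832159, where kindling sham rats 2 to 4 were at 30.2, 26.9 and 27.2%, kindling sham rat 1 was at 96.8% and all other rats were between 94.1 and 100%. Kindling sham rat 1 lay with the other groups at both CpGs. At chr1:226233903, measured on the plus strand, the kindling sham rats were at 53.4, 91.6, 97.5 and 28.9% and the kindling seizure rats between 1.81 and 3.797%. The kainic acid sham rats ran from 0.962 to 35.8% (median 2.59%) and the seizure rats were at 3.88, 30.3 and 9.02%, so that rats of both kainic acid groups overlapped the kindling sham rats. All 110 neighbours there ranged over less than 30 points and averaged 8.67%. Of these 5 CpGs, all but chr1:226233903 were also among the 5 of smallest p between the sham groups, each with limma adjusted p = 0.176. The kindling sham rats are shared by both comparisons.

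For kainic acid the smallest adjusted p was 0.0562 (limma), at 2 cytosines. At chr7:12384782 the kainic acid seizure rats were at 30.8, 50 and 45.8% and the sham rats between 69.6 and 95% (median 83.9%), a difference on the minus strand of -41.2 ± 5.85 points (SE). The kindling rats there were at 55.6 to 87.5%, and the opposite strand ranged over 21.2 points. At chr16:21343201 the kainic acid seizure rats were at 71.1, 48.8 and 44.9%, above sham rats at 2.94 to 30% (median 4.55%), and the differences were 45.4 ± 6.48 points on the plus strand and 47.5 points on the minus strand. The kindling sham rats there were at 37.1, 5.13, 32.1 and 2.38% and the kindling seizure rats at 3.03, 5.26, 3.92 and 1.52%. The rats of both kainic acid groups did not overlap at either CpG.

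The next in order had larger p-values. At chr1:243665144 the kainic acid seizure rats were at 17.6, 72.4 and 5.56%, and the kindling rats at 94.3 to 100%. Kainic acid sham rat 2 was at 71.4%, so that sham and seizure rats overlapped there (limma adjusted p = 0.0599). The CpG chr1:243588638 was named for any difference among the 4 groups and not for kainic acid. There the same 3 seizure rats were at 8.43, 22.97 and 8.09% and kainic acid sham rat 2 at 17.3%. The other kainic acid sham rats lay between 79.4 and 100%. At chr6:133782878 the seizure rats were at 52.5, 81.8 and 63.6% and the kainic acid sham rats at 0 to 38.9%, with no measured neighbour and no measured opposite strand. At chr2:30017701 the seizure rats were at 46.9, 49.8 and 86.5% and all 7 kainic acid sham rats at 0 to 4.78%, while kindling sham rats 1 and 3 were at 49.9 and 48.8% and kindling sham rats 2 and 4 at 0.877 and 0.980%. The 4 kindling seizure rats, at 42.0 to 49.8%, lay on the level of sham rats 1 and 3.

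For the mean of both differences the smallest p belonged to the pair on chromosome 12. At chr12:23686292 the kindling sham rats were at 100, 98.6, 96.7 and 95.5% and the kindling seizure rats at 51.2, 37.7, 54.9 and 53.0%. The kainic acid sham rats ran from 50.7 to 98.9% (median 65.6%), and the seizure rats were at 34.2, 2 and 43.4%. Seizure rats were below sham rats without overlap in both models there, and the mean difference was -47.4 ± 7.36 points on the minus strand and -48.9 points on the plus strand (limma adjusted p = 0.371). At chr12:23654381, 31.9 kb away, the kindling sham rats were at 60.9 to 84.6% and the seizure rats at 13.6 to 41.7%, while the kainic acid sham rats were at 36.8 to 79.2% and the seizure rats at 18.2, 2.70 and 38.5%, which overlapped. At chr17:59070228 the kindling sham rats were at 29.0 to 62.8% and the seizure rats at 89.3 to 100%. The kainic acid sham rats were at 42.9 to 91.3% and the seizure rats at 97.1 to 100%. The opposite strand there ranged over 20 points.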

How the data were processed

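Hippocampal DNA of 18 rats was measured by reduced representation bisulfite sequencing. The authors deposited methylation fractions (beta values from 0 to 1), with each strand of a CpG on its own row and 0 missing values. Per the submitters' processing notes, the tools were methylKit, Bismark, Bowtie2, Trim Galore and FastQC and the build was rn6, with no versions. The sources used here give no coverage filter, and the depth is unknown. Library names in the labels matched columns to rats, and 0 columns were left unused. A cytosine that rests on few reads takes coarse values, which can widen its range.

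Levels were multiplied to percent. Cytosines of chromosomes 1 to 20 with a range above 60 points (ties at 60 left out) were kept. Near a level means within 10 points, and neighbours are measured cytosines of other CpGs within 500 bp. Where both strands passed, the level of a CpG is their mean. limma 3.58.1 (R 4.3.3, data.table version 1.17.8) was fitted to the fractions of the 800753 cytosines with a range of at least 10 points, with 4 groups, a variance prior following the mean level and 14 residual degrees of freedom, and p-values were adjusted by Benjamini-Hochberg over all of them. The script was tested on simulated data. Descriptions used Python 3.11.15, numpy 2.4.6, pandas 2.3.3 and scipy 1.17.1, and figures matplotlib 3.10.9.

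Named places followed 1 rule: the 6 largest runs, the 5 densest windows, the 5 CpGs with the widest range on both strands, the 5 closest to the 3 levels, the 3 cytosines on each side of the threshold, the 5 of smallest p in each comparison, and the 5 of highest group share of variance, ties going by position. The cytosines, the rule and the tests were chosen with earlier results of these data known. Alternatives covered the range threshold, the windows and distances, the mean of both strands, the test's filter, threshold and scale, fits within 1 model, a block for the replicate number, and each rat left out in turn. No sequences or genes are given, since a genome of rn6 was not used here.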

Additional observations from a re-analysis of the deposited data

Results flagged for a closer look

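Of 117 groups of 4 to 7 rats examined by Dixon's criterion, 22 held a rat far from the others. For normally distributed values the criterion flags about 1 in 20 groups by chance. Many of the groups came from CpGs named for their range, levels or p in these same rats. Several others were overlapping measures of 1 library, so the 22 cannot be set against that share. Kindling sham rat 1 was far below the other kindling sham rats in values near 0% (8.98%), near 100% (10.92%) and near any of the 3 levels (44.63%), and far above them in values between the levels (38.85%) and in the mean distance to the nearest level (11.76 points). Kainic acid sham rat 5 was low in values near 50% (23.9%) and high in the number of cytosines that rest on it (612). Kindling seizure rat 3 was high in the mean distance to the nearest level (9.02 points, against 8.725 to 8.737).

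Single CpGs also held a rat apart from its group. Kindling seizure rat 3 was at 0% at chr1:98037188 and at 0% at chr15:34010325, where kainic acid sham rat 6 was at 50.89%. Kainic acid sham rat 6 was apart at both CpGs of the chromosome 4 pair, at 43.22% (chr4:150231073) and 35.5% (chr4:150231094), and kindling seizure rat 1 was at 44.14% at the first of them. Kindling sham rat 1 was at 69.12% at chr1:98179431 and at 96.84% at chr20:47832159. Kainic acid sham rat 2 was at 71.43% at chr1:243665144 and at 17.31% at chr1:243588638, where kindling sham rat 4 was at 83.33%. Kindling seizure rat 4 was at 0.9494% at chr15:28779524, kainic acid sham rat 3 at 85.91% at chr20:12145590 and kainic acid sham rat 5 at 30% at chr16:21343201.

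At 5 of the 25 named CpGs every kindling seizure rat lay on the same side of the kindling sham mean and every kainic acid seizure rat on the opposite side of the kainic acid sham mean. The difference between the models was not tested at these CpGs. The 25 were named from these same values, many for small p, and no share over all variable cytosines is given. Nothing is therefore read from the count. The CpGs on chromosome 4 varied together, with r of -0.99, -0.98 and 0.968 between them. At chr20:47832159 all kainic acid rats, sham and seizure, lay between 94.1 and 100%. The kindling difference minus the kainic acid difference was 61.35 points at chr4:150397564 (47.1 and -14.25), 55.3 points at chr20:47832159 (53.24 and -2.067), -82.66 points at chr4:150231073 (-60.99 and 21.67), -62.2 points at chr16:21343201 (-15.72 and 46.48) and 64.28 points at chr4:150231094 (47.99 and -16.29).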

How the results depend on the processing

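The set's size followed its definition. It was 23779 cytosines at a range above 50 points and 6692 above 80 points. By the second highest minus the second lowest rat it was 6476 cytosines, and without each rat in turn 11427 to 12270. On the mean of both strands 3294 CpGs passed, each counted once and only where both strands were measured. That is a count of CpGs, beside the 3215 CpGs with both strands in the set. With a window of 5 points the shares near 0, 50, 100% and any of them were 14.63, 13.3, 9.822 and 37.76%. With 15 points the shares near 50, 100% and any were 34.39, 20.92 and 74.2%. Above 80 points of range those near 0, 100% and any were 22.05, 19.27 and 66.81%, strand r above 0.9 was found in 92.16%, another variable CpG within 500 bp in 15.33%, and the group share of variance was 18%. Another variable CpG lay within 200 bp in 19.05% and within 1000 bp in 22.4%, and neighbours with r of 0.5 or more made up 15.58 and 16.01% at these distances. Leaving out each rat gave 17.24 to 17.92% near 0%, 24.85 to 25.23% near 50%, 16.1 to 16.57% near 100%, 58.45 to 59.49% near any, 73.05 to 74.34% for the strands, 19.99 to 20.93% for clustering, 15.12 to 15.59% for neighbours and 16.85 to 19.17% for the group share.

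Called variable cytosines, 0 in each comparison as reported, were for kainic acid 3 of 14 called over all cytosines at an adjusted p under 0.1, 3 of 9 with a range filter of 20 points and 1 of 110 without a filter. In fits within 1 model they were 9 of 18 (kainic acid) and 7 of 8 (kindling). Without each rat in turn they ran from 0 to 26 for kindling, 0 to 10 for kainic acid, 0 to 12 for the mean of both, 0 to 32 between the sham groups and 0 to 27 for any difference. Deviations of same-numbered sham and seizure rats from their group means had r of -0.040 to 0.0738. Differently numbered rats of 1 model had r of -0.162 to 0.116, so these values cannot decide whether the numbers pair rats. With the replicate number as a block, called variable cytosines were 1 of 1 called for kindling, 2 of 5 for kainic acid, 4 of 4 for the mean of both, 2 of 3 between the sham groups and 3 of 5 for any difference. The cause of these shifts was not tested. The settings without the largest run, with both strands, and by odd and even chromosomes were chosen after seeing the data. Depth is unknown and limits every single value.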
